A study of Mus musculus with 8 samples.

Results

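The 6 genes described here (Mcee, Mut, Pcca, Pccb, Mmaa and Mmab) carry out the conversion of propionyl-CoA to succinyl-CoA in mitochondria. They were followed across 8 one-colour Agilent arrays of haematopoietic stem cells (HSC). Their 10 probes were found by gene name or older alias, and all 6 genes were among the 22974 genes and unnamed features tested on these arrays. The genes were chosen by their scaled levels and detection marks in the 4 groups of these arrays, so those values are given as a description, without a test. HSC were sorted by flow cytometry as the donor-derived cells of transplanted mice. The 4 groups of 2 arrays were E47 knockout (KO) HSC from secondary recipients, wild-type (WT) HSC from secondary recipients, KO HSC from primary recipients and WT HSC from primary recipients. E47, a product of the gene Tcf3 (E2A), is a transcription factor of the helix-loop-helix family that binds E-box sequences. What the labels share for all groups is passage through a host mouse, sorting, lysis and a global PCR amplification of mRNA-derived cDNA by a service company. The sources used here give no age, sex or strain of donors and hosts, no type of knockout allele and no cell number. They also do not say whether both arrays of a group came from different sorts or animals, and the p-values may therefore reflect technical spread alone.

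Propionyl-CoA arises when cells break down isoleucine, valine, methionine, threonine and odd-chain fatty acids. Propionyl-CoA carboxylase, built from the subunits Pcca and Pccb, adds a carboxyl group to it with the help of biotin. The epimerase Mcee turns the product over to its mirror form, and the mutase Mut rearranges that form to succinyl-CoA, which enters the TCA cycle. Mut needs adenosylcobalamin, a form of cobalamin that Mmab makes and that Mmaa, a GTPase, helps to load and keep active. In people, loss of the carboxylase causes propionic acidaemia and loss of Mut, Mmaa or Mmab causes methylmalonic acidaemia.

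Each level below is the log2 processed spot intensity after subtracting that array's 75th percentile, so a level of 0 is the brightness of that percentile, and levels of different probes are not set against each other. Spots marked well above background made up 74.5 to 90.7% of the arrays of secondary recipients, against 72.2% and 74.0% on replicate 1 and 35.4% and 41.9% on replicate 2 of the KO and WT primary groups. On these 2 dim arrays the lowest level marked well above background was -1.20 (KO) and -2.18 (WT), against -6.45 to -5.00 on the other 6 arrays. The 75th percentile signal was 19.6 (KO) and 36.6 (WT) on the dim arrays, against 321 to 847 on the other 6. The marker sums below are multiples of it, so the small divisor raises them on the dim arrays. Markers of HSC summed to 53.5 to 83.5 times the 75th percentile signal in secondary recipients. In primary recipients they summed to 30.5 and 12.02 in KO HSC and to 25.95 and 1800 in WT HSC, the 1800 being the dim array, and all 12 were detected on at least 1 array. Markers of granulocytes and monocytes summed to 7.44 to 25.4 in secondary recipients. In primary recipients they summed to 228 (KO) and 249 (WT) on replicate 1 and to 15830 (KO) and 10450 (WT) on the dim arrays. All 12 of these were detected on at least 1 array. T and NK cell markers summed to 4.62 to 18.0 in secondary recipients. In primary recipients they were 17.95 (KO) and 14.06 (WT) on replicate 1, and 438 and 17.76 on the dim arrays. Megakaryocyte markers summed to 3.62 to 5.52 in secondary recipients. In primary recipients they were 7.34 and 8.77 on replicate 1, and 39.6 and 15.9 on the dim arrays. Erythroid markers (1.396 to 3.337 in secondary, 2.362 to 11.66 in primary recipients) overlapped. So did B cell markers (6.431 to 9.706 and 8.733 to 11.55) and mast cell and basophil markers (1.228 to 3.415 and 2.169 to 10.59). All 4 WT arrays lay on 1 slide, while the KO arrays of secondary and of primary recipients each had a separate slide. Effects of genotype and of slide therefore cannot be told apart. Among KO arrays the effects of recipient and of slide cannot be told apart either. Recipient differences over both genotypes share this limit in part, and only those among WT arrays lie within 1 slide. The median gene shifted by -0.73 between secondary and primary recipients and by 0.45 and 0.29 between KO and WT in secondary and primary recipients, and every change below is relative to that median, with its standard error (SE) from limma.

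Among the 6 genes, Mcee stood out by recipient: it was bright on all 4 arrays of secondary recipients and dim on all 4 of primary recipients, in both genotypes. Pccb and the brightest probe of Mmaa were detected on every array, and their 2 arrays per group differed by at most 1.08 on the log2 scale. The second Mmaa probe was well above background on 4 of 8 arrays. Its KO minus WT over both recipients was 3.38 (SE 1.05), against -0.17 (SE 0.62) on the brightest probe. With values near background raised to each array's lowest well-detected signal, the second probe gave 2.26 (SE 0.91). Pcca was low and uneven, and the brightest probes of Mut and Mmab were uneven between replicates and were not matched by second probes of the same genes. On their brightest probes, none of the 6 separated KO from WT HSC without overlap over both kinds of recipient.

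**Figure D1:**
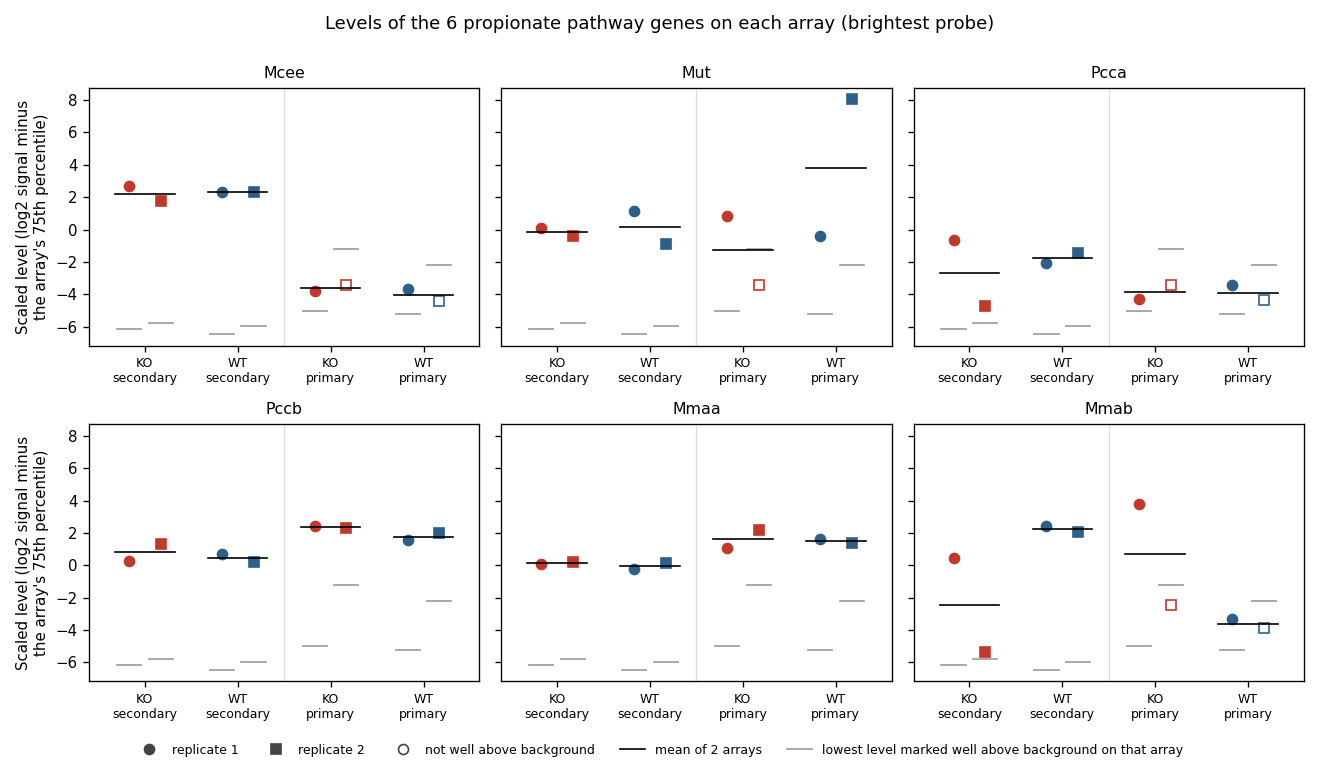
Level of the brightest probe of each gene on each array, with circles for replicate 1, squares for replicate 2, open symbols where the spot was not well above background, black lines for the mean of 2 arrays and grey lines for the lowest level marked well above background on that array. Mcee lies between 1.75 and 2.70 in secondary recipients and between -4.42 and -3.43 in primary recipients, and Mut reaches 8.04 on 1 WT array only.

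Mcee encodes methylmalonyl-CoA epimerase, the step between the carboxylase and the mutase. Its single probe lies at chr7:64290920-64290979 (mm8, plus strand), and the first 30 of its bases are shown because the largest difference among the 6 genes rests on this oligo alone.
Mcee probe: gaactggagcaagcatgatttataattatg
The Mcee level was 2.70 and 1.75 in KO HSC and 2.33 and 2.31 in WT HSC of secondary recipients. In primary recipients it was -3.78 and -3.43 in KO HSC and -3.69 and -4.42 in WT HSC. The processed intensities behind these levels were 4311 and 1451 (KO) and 4266 and 3614 (WT) in secondary recipients, against 25.9 and 1.82 (KO) and 24.9 and 1.71 (WT) in primary recipients. The values of 1.82 and 1.71 came from the dim arrays and were not well above background, whereas replicate 1 of both primary groups was. All secondary arrays thus lay above all primary arrays, as for 3.16% of all genes tested, and KO and WT overlapped within each kind of recipient.

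Relative to the median gene, Mcee was higher in secondary than in primary recipients by 6.83 (SE 0.63) on the log2 scale over both genotypes. The difference was 6.36 (SE 0.95) among KO arrays and 7.37 (SE 0.95) among WT arrays, and the WT comparison lies within 1 slide. Without both dim arrays it was 6.51, and with values near background raised to each array's lowest well-detected signal it was 6.02. Normexp background correction with an offset of 50, which compresses low signals, gave 4.43. KO minus WT was -0.55 (SE 0.95) in secondary and 0.16 (SE 0.95) in primary recipients, in each case smaller than its standard error. The summed HSC markers were also higher on all secondary arrays (53.5 to 83.5) than on 3 of 4 primary arrays (12.02 to 30.5), with 1800 on the dim WT array. The summed granulocyte and monocyte markers moved the other way, with 7.44 to 25.4 in secondary recipients. In primary recipients they were 228 and 249 on replicate 1, and 15830 and 10450 on the dim arrays. The part of either list in the Mcee result was not tested. Fewer cells that express a gene and less of its RNA per cell cannot be told apart in such bulk samples.

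E47 binds E-boxes (CANNTG), so the 250 bases before the transcription start of the Mcee gene are given with that motif in capitals (RefSeq, GRCm38.p6, chr7:64392372-64392621, plus strand).
Mcee promoter: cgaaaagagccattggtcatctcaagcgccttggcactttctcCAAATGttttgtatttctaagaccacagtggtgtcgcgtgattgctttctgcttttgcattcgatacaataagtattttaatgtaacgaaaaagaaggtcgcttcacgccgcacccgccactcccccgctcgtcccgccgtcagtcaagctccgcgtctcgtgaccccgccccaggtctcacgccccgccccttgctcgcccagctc
The only E-box in this window is CAAATG, whose first base lies 207 bases before the start. At least 1 E-box was present in 66.2% of 32851 promoter windows of the same length. The motif reads alike on both strands and was searched together with its special cases CAGCTG (13% of windows) and CAGGTG on either strand (17.2%), neither of which the Mcee window holds.

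Pcca encodes the biotin-carrying alpha subunit of propionyl-CoA carboxylase and Pccb the beta subunit. The Pcca probe maps to a span of 63576 bases (chr14:121948406-122011981, mm8, plus strand) and so crosses at least 1 intron of the gene.
Pcca probe: catccagtttcttggcacagtgtacaaagt
Pccb probe: gttatagtaaaaatctcaatcttatacaag
These first 30 bases of both probes are shown because each subunit was measured by 1 oligo. The Pccb probe lies at chr9:100791783-100791842 (mm8, minus strand).

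The Pcca level was -0.63 and -4.70 in KO HSC and -2.04 and -1.47 in WT HSC of secondary recipients, and -4.29 and -3.41 in KO HSC and -3.44 and -4.37 in WT HSC of primary recipients. Within secondary recipients, KO replicate 2 lay below the other 3 arrays. This probe was not well above background on either dim array, where the lowest level so marked was -1.20 (KO) and -2.18 (WT), so those arrays cannot be ranked against the secondary ones. Secondary minus primary was 2.40 (SE 0.96) over both genotypes, and 2.15 without the dim arrays. KO minus WT in secondary recipients was -1.36 (SE 1.43). It was -3.41 without KO secondary replicate 1 and 0.73 without KO secondary replicate 2, so its sign depended on which of the 2 arrays was kept.

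Pccb was detected well above background on every one of the 8 arrays. The level was 0.26 and 1.34 in KO HSC and 0.69 and 0.19 in WT HSC of secondary recipients, against 2.42 and 2.28 in KO HSC and 1.55 and 2.01 in WT HSC of primary recipients. All secondary arrays lay below all primary arrays, as for 12.7% of all genes tested, and the median gene was also lower there. Relative to that median, secondary minus primary was -0.72 (SE 0.63), and 0.14 with normexp background correction. KO minus WT was -0.10 (SE 0.95) in secondary recipients and 0.28 (SE 0.95) in primary recipients. Both KO arrays of primary recipients lay above both WT arrays, as did those of 16.9% of all genes tested. The 2 arrays of a group differed by 0.14 to 1.08, against a median replicate difference over all genes of 0.82 to 1.71.

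RefSeq lists 2 promoter windows for Pcca (GRCm38.p6, plus strand). That of the upstream start (chr14:122484115-122484364) held 3 E-boxes, at 201, 138 and 28 bases before the start, and is shown because its middle one, CACCTG, is CAGGTG read on the other strand.
Pcca promoter: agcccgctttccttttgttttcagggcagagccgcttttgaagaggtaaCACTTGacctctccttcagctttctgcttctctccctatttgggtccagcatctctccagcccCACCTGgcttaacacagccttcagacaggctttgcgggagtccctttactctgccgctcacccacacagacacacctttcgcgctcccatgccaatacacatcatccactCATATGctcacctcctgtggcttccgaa
The window of the other start (chr14:122534078-122534327) held 1 E-box, CATATG, at 145 bases. The Pccb window (chr9:101034885-101035134, minus strand) held none, which says only that these letters are not in this window.

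Mut, named Mmut in RefSeq, encodes methylmalonyl-CoA mutase. The array carries 3 probes for it on chromosome 17 (mm8, plus strand). The brightest lies at chr17:40424927-40424986, a second one lies 739 bases upstream of it at chr17:40424188-40424252, and the third lies 14081 bases upstream at chr17:40410846-40410905. The first 30 bases of the brightest 2 are given because these probes disagreed.
Mut brightest probe: ctcacatgggaatgatattgttaatgtcag
Mut second probe: atctttagttatgactgaagcagcagtctg
The brightest probe had levels of 0.10 and -0.42 in KO HSC and 1.16 and -0.89 in WT HSC of secondary recipients, and of 0.86 and -3.43 in KO HSC and -0.37 and 8.04 in WT HSC of primary recipients. The last value is an intensity of 9614 on the dim array of WT primary recipients, where the second probe gave 1.69 and was not well above background. On that second probe the levels were -1.70 and -0.37 (KO) and -4.41 and -0.10 (WT) in secondary recipients, and -3.03 and -3.48 (KO) and -2.32 and -4.43 (WT) in primary recipients. The third probe, assigned to the transcript AK051851, was well above background on 1 of 8 arrays.

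KO minus WT for the brightest Mut probe was -5.41 (SE 2.66) in primary recipients. It was -1.45 without WT primary replicate 2, -2.69 without KO primary replicate 2 and 1.09 without both of these dim arrays. The second probe gave -0.16 (SE 1.57) for the same comparison. In secondary recipients KO minus WT was -0.75 (SE 2.66) on the brightest and 0.77 (SE 1.57) on the second probe. By recipient, secondary minus primary over both genotypes was -0.55 (SE 1.95) on the brightest and 2.40 (SE 1.06) on the second probe. The pair of probes thus gave opposite signs in both of these last comparisons.

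**Figure D2:**
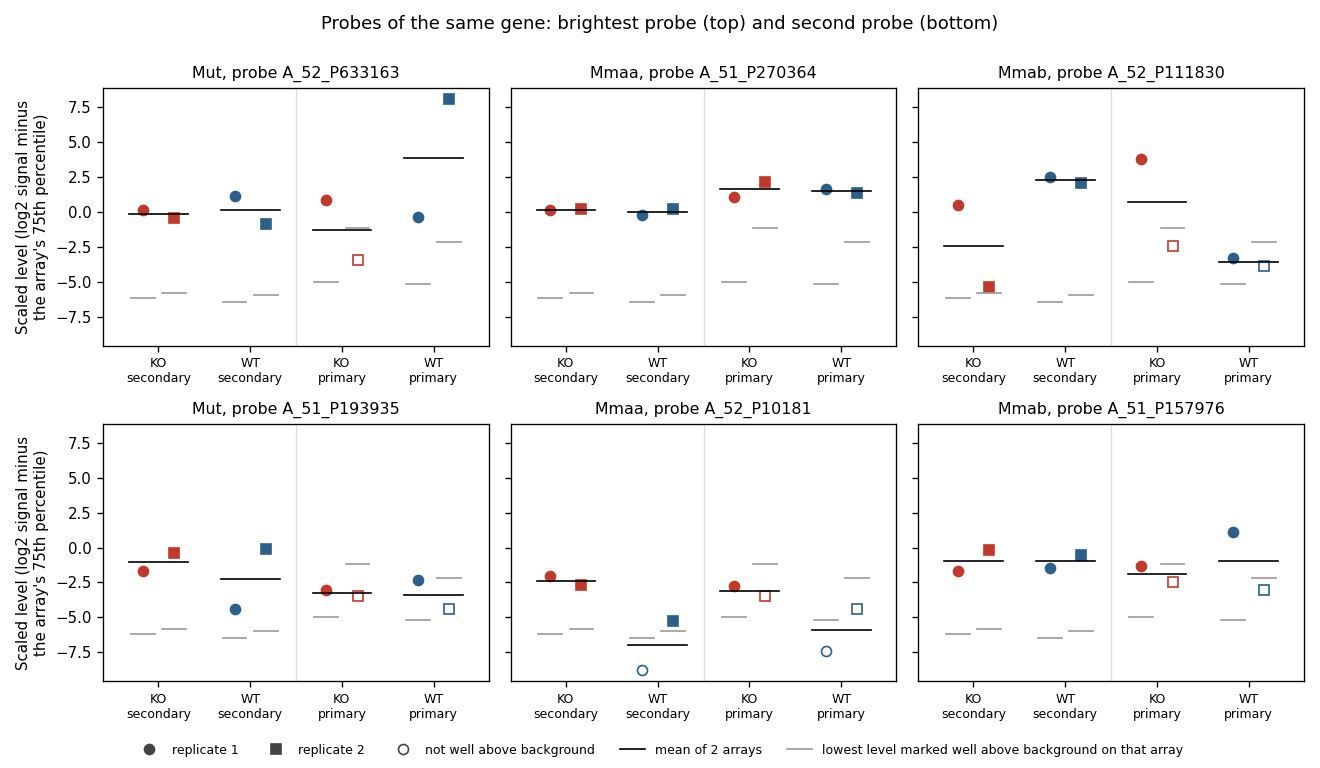
Levels of the brightest probe (top) and the second probe (bottom) of Mut, Mmaa and Mmab on each array, with symbols and lines as in the plot of all 6 genes. The value of 8.04 for Mut and the spread of 2.46 to -5.37 for Mmab among secondary recipients appear on the top probes only, and the bottom probe of Mmaa was well above background on 3 of 4 KO arrays and 1 of 4 WT arrays.

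Mmaa encodes the GTPase that guards the cobalamin cofactor of the mutase. Its brightest probe lies at chr8:82163998-82164057 and its second probe at chr8:82162527-82162586 (mm8, minus strand), 1471 bases apart. Both are shown by their first 30 bases since they also disagreed.
Mmaa brightest probe: cctctccccaggacgagcagcagacttgtt
Mmaa second probe: cattatcatggaggcatataggaaatattg
On the brightest probe, well above background on all 8 arrays, the level was 0.09 and 0.21 in KO HSC and -0.25 and 0.16 in WT HSC of secondary recipients, against 1.09 and 2.15 in KO HSC and 1.65 and 1.36 in WT HSC of primary recipients. KO and WT overlapped in both kinds of recipient, with KO minus WT of -0.25 (SE 0.94) in secondary and -0.17 (SE 0.94) in primary recipients. All secondary arrays lay below all primary arrays, as for 12.7% of all genes tested. Relative to the median gene the difference was -0.78 (SE 0.62), or 0.04 with normexp background correction. The second probe, well above background on 4 of 8 arrays, gave 0.55 (SE 1.05) by recipient. With values near background raised to each array's lowest well-detected signal it gave -0.25 (SE 0.91). Its sign by recipient thus depended on how dim spots were treated.

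The second Mmaa probe gave another picture by genotype. Its level was -2.02 and -2.71 in KO HSC and -8.75 and -5.26 in WT HSC of secondary recipients, and -2.73 and -3.49 in KO HSC and -7.37 and -4.42 in WT HSC of primary recipients. The probe was well above background on 3 of 4 KO arrays and on 1 of 4 WT arrays, with intensities of 164, 65.9 and 53.9 on those KO arrays and 19.0 on that WT array. The other 4 spots, KO primary replicate 2 among them, had intensities of 1.71 to 1.97, so their order by level comes from the scaling. KO minus WT was 4.19 (SE 1.51) in secondary, 2.50 (SE 1.51) in primary and 3.38 (SE 1.05) over both kinds of recipient. With values near background raised to each array's lowest well-detected signal, these differences were 3.04 (SE 1.30), 1.34 (SE 1.30) and 2.26 (SE 0.91) for the same comparisons. The averaged value of both Mmaa probes turned KO minus WT over both recipients to 1.60, against -0.17 (SE 0.62) on the brightest probe.

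Of the 2 RefSeq promoter windows of Mmaa (GRCm38.p6, minus strand), the one at chr8:79294962-79295211 held 1 E-box, CAGGTG at 173 bases before the start. It is shown because it is the only one of the matched windows with CAGGTG on the strand of the gene.
Mmaa promoter: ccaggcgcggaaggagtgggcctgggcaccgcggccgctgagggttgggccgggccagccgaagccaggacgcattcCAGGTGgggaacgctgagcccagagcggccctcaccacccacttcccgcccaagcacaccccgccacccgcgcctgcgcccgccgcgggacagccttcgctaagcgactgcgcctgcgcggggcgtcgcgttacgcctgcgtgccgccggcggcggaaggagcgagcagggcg
The other Mmaa window (chr8:79294737-79294986) and the Mmab window (chr5:114444028-114444277, minus strand) held no E-box. A match or its absence in these windows is a description of the sequence and was not set against binding.

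Mmab encodes the adenosyltransferase that makes adenosylcobalamin. Its brightest probe lies at chr5:114692232-114692291 and its second probe 1831 bases away at chr5:114694063-114694122 (mm8, minus strand).
Mmab brightest probe: tctcatggagtaattttcagagcctgaact
Mmab second probe: gtcgaacatgtcagctgacttccaaattct
The first 30 bases are given because the brightest probe had the most uneven replicates of KO HSC among the 6 genes. Its level was 0.46 and -5.37 in KO HSC and 2.46 and 2.09 in WT HSC of secondary recipients. In primary recipients it was 3.81 and -2.47 in KO HSC and -3.33 and -3.87 in WT HSC. The 2 KO arrays differed by 5.83 in secondary and 6.28 in primary recipients, while the 2 WT arrays differed by 0.37 and 0.54. Intensities in primary recipients were 5016 and 3.54 in KO HSC, against 31.9 and 2.50 in WT HSC, with the second value of each from a dim array and not well above background.

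KO minus WT on this Mmab probe was -5.18 (SE 2.40) in secondary recipients and 3.99 (SE 2.40) in primary recipients. Both KO arrays lay below both WT arrays in secondary recipients, as for 12.3% of all genes tested. In primary recipients both scaled KO levels were above both WT levels, as for 16.9% of all genes tested, but replicate 2 of both groups was not well above background, so only replicate 1 was measured on both sides. Without KO secondary replicate 2 the first value was -2.21, and without KO primary replicate 1 the second was 0.60. On the second Mmab probe the levels were -1.72 and -0.15 (KO) and -1.47 and -0.51 (WT) in secondary recipients, and -1.35 and -2.44 (KO) and 1.14 and -3.04 (WT) in primary recipients. KO minus WT on it was -0.40 (SE 1.51) in secondary and -1.23 (SE 1.51) in primary recipients, and the groups overlapped in both.

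Set together on their brightest probes, the 6 genes had a median KO minus WT difference of -0.65 in secondary recipients. There 0 genes lay above and 6 below the median of all 22974 genes. The second probes gave 0.77 for Mut, 4.19 for Mmaa and -0.40 for Mmab in that comparison. In primary recipients the median of the 6 on their brightest probes was 0.00, with 3 above and 3 below. By recipient the median of the 6 was 0.77, with 3 above and 3 below. The next counts are of brightest probes without overlap by scaled level, whether or not a spot was well above background. In primary recipients 0 of the 6 genes were lower and 2 (Pccb and Mmab) higher in KO than in WT HSC. Of all genes 9.12% were lower and 16.9% higher there. In secondary recipients 0 were higher and 1 (Mmab) lower, where 34% and 12.3% of all genes were. Over both kinds of recipient 0 were higher or lower, against 1.31% and 0.488% of all genes. The second Mmaa probe, well above background on 4 of 8 arrays, had higher scaled levels on all 4 KO than on all 4 WT arrays. By recipient 1 (Mcee) was higher and 2 (Pccb and Mmaa) were lower in secondary recipients, against 3.16% and 12.7% of all genes.

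The limma p-values test each change before the change of the median gene was subtracted. The shift of the median gene, -0.73 by recipient over both genotypes, therefore enters the p-values and the shares called. No gene on the arrays, and so none of the pathway neighbours below, passed an adjusted p of 0.05 in limma. The share called was 0% in all 7 comparisons, namely KO against WT in secondary, primary and both recipients, secondary against primary recipients in KO, WT and both genotypes, and the interaction. At an unadjusted p under 0.05, limma called 1231 genes (5.36%) for KO against WT in secondary recipients, 909 (3.96%) in primary recipients and 1075 (4.68%) over both. It called 4406 (19.2%) for secondary against primary recipients over both genotypes, 1386 among KO arrays, 2751 among WT arrays, and 862 for the interaction. The lowest adjusted p of any gene by recipient over both genotypes was 0.058.

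The neighbours were 41 genes in 4 lists, and 39 were tested. The lists were chosen for their place next to the pathway, but with earlier results of these data known, which limits their p-values. The other two, Echdc1, which clears ethylmalonyl-CoA, and Mlycd, which decarboxylates malonyl-CoA, were well above background on 2 arrays each. By recipient, 4 neighbours had an unadjusted p under 0.05, taken before centring, and were higher relative to the median gene, while 2 with such a p were lower. Together these were 15.4% of the 39, below the 19.2% of all genes. The median of the 39 was 0.71, with 27 above and 12 below the median gene.

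Suclg1, Suclg2 and Mmadhc were bright on all arrays of secondary recipients and lay without overlap above those of primary recipients, as Mcee did and as 3.16% of all genes tested did. Suclg1 and Suclg2 encode the alpha subunit and the GTP-specific beta subunit of succinyl-CoA ligase, which takes up the succinyl-CoA that Mut makes. Suclg1 had levels of 3.45 and 4.45 in KO HSC and 3.96 and 3.52 in WT HSC of secondary recipients, against -0.92 and 1.26 in KO HSC and -0.81 and 0.56 in WT HSC of primary recipients. It was well above background on every array, and the difference was 4.55 (SE 0.76, limma adjusted p 0.100).

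Suclg2 had levels of 2.83 and 0.03 in KO HSC and 2.80 and 4.16 in WT HSC of secondary recipients, against -5.80 and -2.38 in KO HSC and -3.72 and -1.56 in WT HSC of primary recipients. The difference was 6.55 (SE 1.06, limma adjusted p 0.0887). It was not well above background on either KO array of primary recipients, so that the KO difference is a bound, at least 23.1-fold higher in secondary recipients before centring.

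Mmadhc, which directs cobalamin to its cytosolic or mitochondrial use, had levels of 1.77 and 3.23 in KO HSC and 2.60 and 2.42 in WT HSC of secondary recipients. In primary recipients it had -3.29 and -0.10 in KO HSC and -3.94 and -3.60 in WT HSC, where the spot of -3.60 was not well above background. The difference was 5.97 (SE 0.92, limma adjusted p 0.0816). None of these 3 differences passed the threshold, and without both dim arrays their limma adjusted p-values were 0.0667 for Suclg1, 0.0724 for Suclg2 and 0.0507 for Mmadhc. With quantile normalization all 3 passed (limma adjusted p 0.0219, 0.0465 and 0.0276), and with array weights Suclg2 and Mmadhc did (limma adjusted p 0.0363 and 0.0486). Other settings gave higher limma adjusted p-values in the same order of genes. They were 0.376, 0.370 and 0.325 with a block for slide, which rests on the WT arrays alone and repeats the WT comparison. With values near background raised to the floor they were 0.169, 0.175 and 0.161. The mean over all probes of Suclg2 gave a difference of 4.96 (limma adjusted p 0.170). The HSC, granulocyte and monocyte markers moved by recipient as given beside Mcee, and their part was not tested here either.

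**Figure D3:**
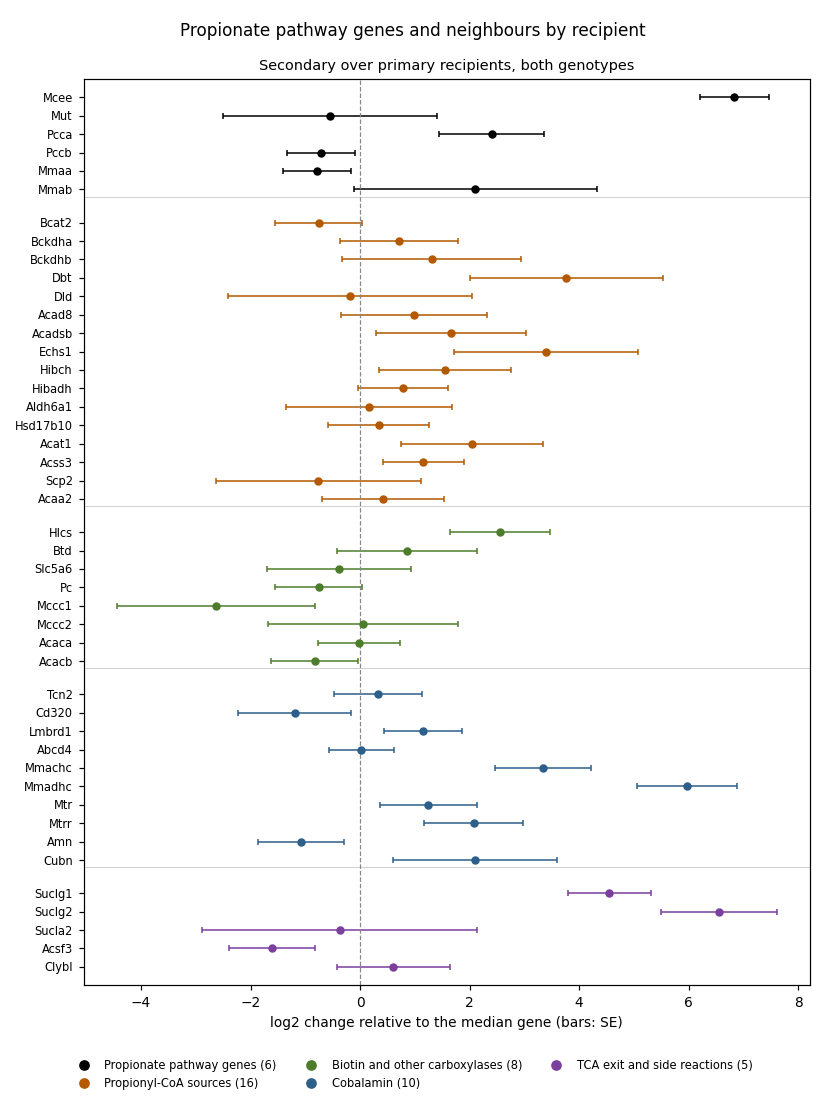
Difference between secondary and primary recipients over both genotypes, relative to the median gene, for the 6 propionate genes and the 39 tested neighbours, with standard errors as bars and colours for the lists. Mcee (6.83), Suclg2 (6.55), Mmadhc (5.97) and Suclg1 (4.55) lie farthest to the right.

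The 3 remaining neighbours with an unadjusted p under 0.05 by recipient were smaller in change. Mmachc, which removes the upper ligand of incoming cobalamin, had a difference of 3.34 (SE 0.88, limma adjusted p 0.250), and 1.71 with normexp background correction. Its secondary and primary levels overlapped, and it was not well above background on either dim array. Acsf3, which activates malonate and methylmalonate in mitochondria, had a difference of -1.61 (SE 0.78, limma adjusted p 0.250). It was -0.57 with normexp background correction and -0.91 without both dim arrays. All secondary levels of Acsf3 lay below all primary levels, as for 12.7% of all genes tested. Amn, part of the receptor that takes up cobalamin in the gut, had a difference of -1.08 (SE 0.78), and -0.34 without both dim arrays. Its limma adjusted p of 0.258 is for the change before centring. Per list, 2 of 10 cobalamin genes had such a p and were higher and 1 lower. Of the 5 tested genes of TCA exit and side reactions, 2 were higher and 1 lower. These are 30% and 60% of short lists, against 15.4% of the 39 neighbours and 19.2% of all genes. The shift of the median gene enters these p-values. The count was 0 of 16 for the sources of propionyl-CoA and 0 of 8 for biotin supply and the other biotin carboxylases. The list median was 1.20 for the cobalamin genes, 0.61 for TCA exit and side reactions, 0.88 for the sources of propionyl-CoA and -0.20 for the biotin list.

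Between genotypes, 2 of the 39 neighbours (5.13%) had an unadjusted p under 0.05 in secondary recipients and 2 in primary recipients, close to the shares of all genes (5.36% and 3.96%), and all 4 belong to the sources of propionyl-CoA. Acad8, the isobutyryl-CoA dehydrogenase of valine breakdown, had levels of -0.11 and 1.02 in KO HSC and -5.39 and -5.11 in WT HSC of secondary recipients. Its KO minus WT difference was 5.25 (SE 1.41, limma adjusted p 0.814), and all 8 arrays were well above background. Echs1, a mitochondrial enoyl-CoA hydratase, had -2.60 and -7.88 in KO HSC and 0.13 and -0.61 in WT HSC, a difference of -5.45 (SE 1.99, limma adjusted p 0.910). KO replicate 2 was not well above background.

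In primary recipients Bckdhb, the beta subunit of the branched-chain ketoacid dehydrogenase, had levels of -1.61 and -2.82 in KO HSC and 0.60 and 5.68 in WT HSC. Its difference was -5.64 (SE 1.79, limma adjusted p 0.995), and -2.35 without both dim arrays. KO replicate 2 was not well above background. Hibadh, which oxidises hydroxyisobutyrate from valine, had 1.88 and 3.45 in KO HSC and -0.57 and 0.21 in WT HSC, a difference of 2.56 (SE 1.07, limma adjusted p 0.995). Over both kinds of recipient 0 of 39 neighbours had an unadjusted p under 0.05 (4.68% of all genes). The lowest were those of Acad8, with a difference of 2.62 (SE 1.33), and of Abcd4, a transporter of cobalamin out of lysosomes, with 0.89 (SE 0.59), each with a limma adjusted p of 0.851. The levels of Abcd4 were higher on all 4 KO arrays, at 0.41 to 1.24, than on all 4 WT arrays, at -0.79 to 0.26, as for 1.31% of all genes tested.

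**Figure D4:**
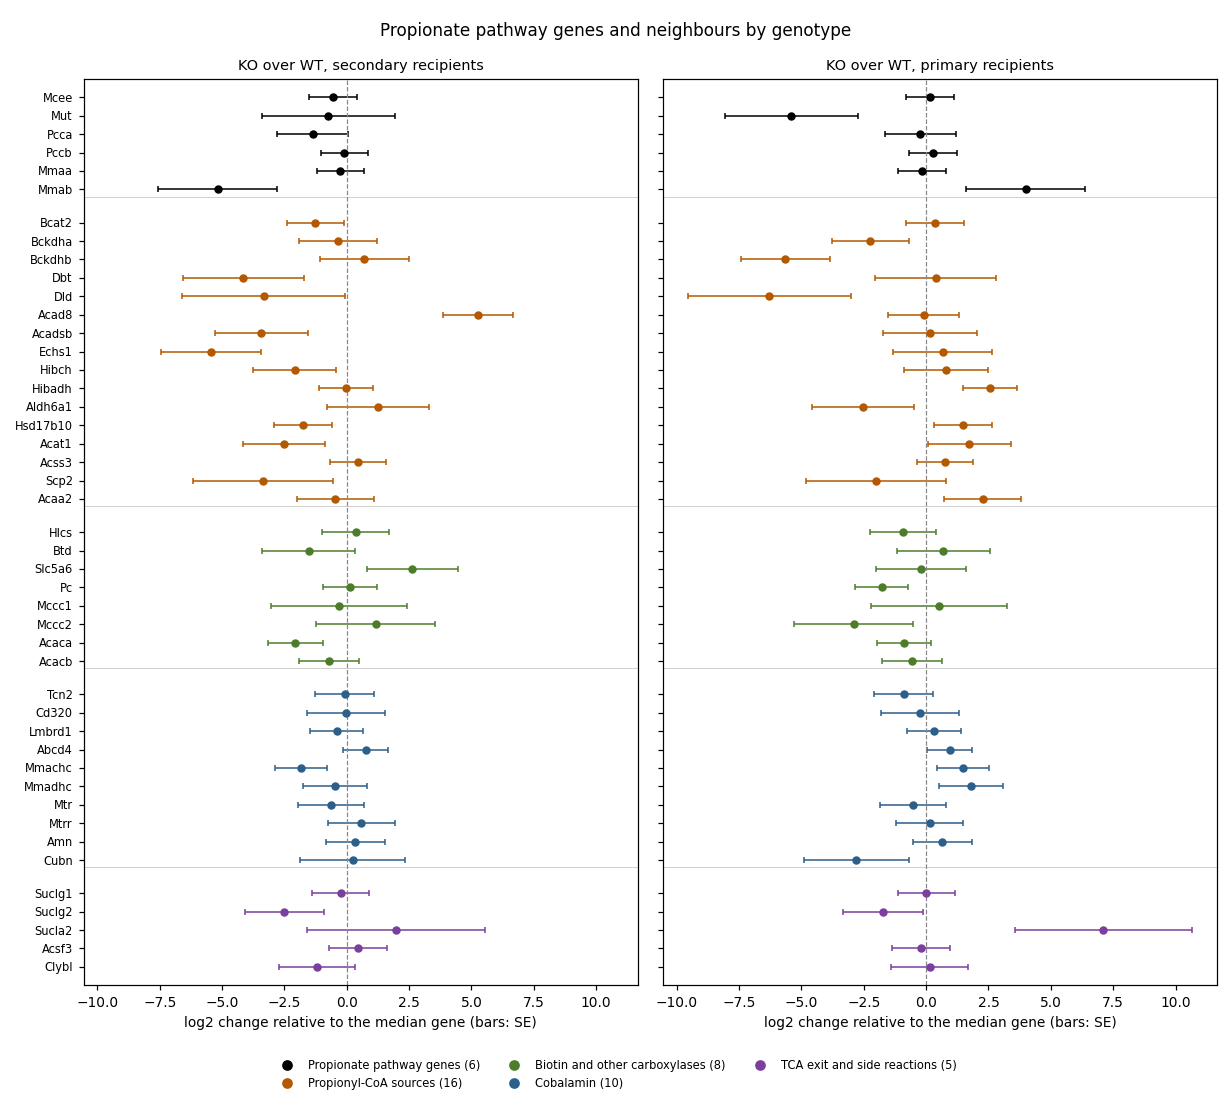
KO minus WT difference relative to the median gene in secondary (left) and primary recipients (right) for the 6 propionate genes and 39 neighbours, with standard errors as bars. The 6 genes are shown by their brightest probes. Mmab lies at -5.18 on the left and 3.99 on the right, whereas Mcee, Pccb and Mmaa lie between -0.55 and 0.28 in both panels.

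In secondary recipients 12 of the 16 sources of propionyl-CoA lay below the median gene by genotype, with a list median of -1.50 and a lowest limma adjusted p of 0.814. In primary recipients 10 of the 16 lay above it, with a list median of 0.37. In secondary recipients the median was -0.09 for the biotin list, -0.06 for the cobalamin list and -0.24 for TCA exit and side reactions, and in primary recipients it was -0.72, 0.23 and 0.01 for the same lists. The median over all genes is 0 by construction.

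The genes whose levels followed those of each member most closely were sought among 13933 genes detected on at least 6 arrays. Genes with clone or accession style names had been left out of these. The measure was Pearson's r over 8 arrays, which share slide, depth and the split by recipient, and it is given as a description. For Mcee these were Arih1, a ubiquitin ligase (r = 0.990), Pitpna, a lipid transfer protein (r = 0.988), and Snw1, a splicing factor (r = 0.987), all high in secondary recipients. For Mut they were Stk38 (r = 0.991), Pcbp1 (r = 0.985) and Fxyd5 (r = 0.983), which also peaked on the dim WT array, with levels of 9.37 for Stk38 and 8.92 for Pcbp1. For Pcca they were Atf4, Gpsm2 and Zfp260 (r = 0.979, 0.976 and 0.971), which shared the low value of KO secondary replicate 2. For Pccb they were Pcdh11x, Col7a1 and Cdip1 (r = 0.986, 0.981 and 0.976). For Mmaa they were Fgf14, Cby1 and Pax5 (r = 0.991, 0.982 and 0.979), and for Mmab Rbck1, Ppp2r3c and Ifitm2 (r = 0.993, 0.980 and 0.979). Those of Mmab shared its high KO primary replicate 1 and low KO secondary replicate 2.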

How the data were processed

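Spot intensities were deposited by the authors as made with Agilent Feature Extraction 10.5.1.1 (design 014868, mm8), per the file headers, with background already subtracted. The deposited series matrix held a ratio to each array's median; its columns had a median of 1 and served as an alternative. Outlier spots were left out, spots of a probe averaged (41048 probes) and log2 intensity scaled to the array's 75th percentile. A gene was represented by its probe of highest mean and tested if a probe was marked well above background on the 2 arrays of any group. limma 3.58.1 (R 4.3.3) was fitted over 4 groups (4 residual degrees of freedom) and additively (5), with Benjamini-Hochberg adjustment, and was tested on simulated data. Probes were named through RefSeq accessions, and 19 alternative settings were run. The text names all 6 members, neighbours with an unadjusted p under 0.05 (at least 2 per comparison) and the 3 closest patterns. Members and lists were chosen with earlier results of these data known. The number of arrays limits precision. Titles number replicates alike across groups, but their deviations correlated by -0.03 to 0.15 only, so they were not paired. Sequences come from the array files and RefSeq (GRCm38.p6); the table gave promoters for 5 of the 6 genes.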

Additional observations from a re-analysis of the deposited data

Results flagged for a closer look

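For Mmab, the scaled levels of both KO arrays lay below those of both WT arrays in secondary recipients and above them in primary recipients. In primary recipients replicate 2 of both groups was not well above background, so its rank comes from the scaling and only replicate 1 was measured on both sides. The KO minus WT difference was -5.18 in secondary and 3.99 in primary recipients, and the change between them, relative to the median gene, was -9.27 on the log2 scale. The second Mmab probe gave 0.74 for the same quantity. The difference was not tested, because Mmab was chosen with these levels known.

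Mmachc showed the same crossing of scaled levels. Its levels were -0.99 and -1.69 in KO HSC and -0.58 and 0.67 in WT HSC of secondary recipients, against -3.14 and -1.60 in KO HSC and -3.90 and -4.36 in WT HSC of primary recipients. The change in KO minus WT between secondary and primary recipients was -3.42 (limma interaction, adjusted p 0.9999), which did not pass the threshold. It was not well above background on either dim array, so in primary recipients the order of its KO and WT levels was measured on replicate 1 only.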

How the results depend on the processing

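The count of genes past the threshold was 0 in each of the 7 comparisons. By recipient over both genotypes it was 1 with normexp background correction, 204 with quantile normalization, 29 with the mean over all probes of a gene, 110 with array weights and 77 without both dim arrays. For KO against WT in primary recipients, leaving out 1 array at a time gave 0 to 542 genes, with 542 without WT primary replicate 1. All other alternatives gave 0, among them the replicate block (0 in all 7 comparisons), the authors' series matrix and values near background raised to the floor, a setting chosen after seeing the data. The cause of these differences was not tested. For the 6 members, 734 alternative values were computed, of which 77 moved by more than the replicate SD and 50 changed sign, none of them a tested call. Keeping only probes well above background on every array left Pccb and Mmaa. The slide block could be fitted only by recipient. Its estimate comes from the WT slide alone, so the Mcee value of 7.37 repeats the difference among WT arrays. Among the 12 differences named for neighbours none changed sign under any alternative run. Signal over background limits the primary groups, since 35.4% (KO) and 41.9% (WT) of spots were well above background on replicate 2.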
